A study of Mus musculus with 12 samples.

Results

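Major histocompatibility complex (MHC) class II molecules hold peptides from engulfed material at the surface of macrophages, dendritic cells and B cells and show them to CD4 T cells. The 8 genes described here encode the parts of this route. H2-Aa and H2-Ab1 encode the alpha and beta chains of the I-A molecule, and H2-Eb1 encodes the beta chain of I-E. Cd74 encodes the invariant chain, which blocks the peptide groove and guides new class II molecules to endosomes. H2-DMa and either H2-DMb1 or H2-DMb2 form DM, which exchanges the invariant chain remnant for peptides. Ciita encodes the class II transactivator, a coactivator that docks on a set of DNA-binding proteins at class II promoters. In macrophages, interferon-gamma is known to raise Ciita, with Irf1 among the factors that carry the signal. C57BL/6 mice carry a non-functional alpha chain gene for I-E, so that H2-Eb1 protein lacks its partner in this strain.

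The genes were taken by name. All 8 were found by Ensembl identifier among the 55487 gene rows of each of 2 count tables, and all 8 passed the filter on low counts in both. The first table held RNA-seq of bone marrow macrophages (BMMs), grown with macrophage colony-stimulating factor from the limb bones of female C57BL/6 mice. The mice had been ovariectomized (OVX, 3 libraries), which removes the main source of estrogen and serves as an osteoporosis model, or sham-operated (sham, 3 libraries). The second table held mesenchymal stem cells (MSCs), passaged adherent marrow cells of C57BL/6 limbs. One group had no partner cells (MSC), one faced RAW264.7 cells, a mouse macrophage leukemia line, through a transwell membrane (MSC+RAW-TW), and one faced RAW264.7 cells given lipopolysaccharide (MSC+RAW-LPS-TW), with 2 libraries each. The labels gave an age of 8 weeks for every sample, and the methods placed the ovariectomy at that age.

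Library totals ran from 17012923 to 45367105 counts. Pairs of libraries of one group were compared by the ratio of their squared count differences to counting noise. It hardly rose from low to high counts for sham replicates 2 and 3 (2.50 to 2.70) and for both MSC+RAW-TW libraries (3.07 to 3.18), while in every other pair it rose from at most 6.86 to at least 15.1. These pairs thus held no difference beyond the noise seen at low counts, and each was counted as 1 sample, which left 3 OVX against 2 sham samples, and 2 MSC, 1 MSC+RAW-TW and 2 MSC+RAW-LPS-TW samples. That lone MSC+RAW-TW sample was assumed to vary like the other groups. Nothing in the labels says that the remaining libraries came from separate animals or cultures, so that the spread between them may be technical. Levels are given as CPM, the counts of a gene per 1e6 counts of its library after TMM scaling of the library total, and CPM per kilobase of exon where genes are compared with each other.

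The libraries were checked against the defining markers of their labels. All 10 macrophage markers were detected in every library, and their summed level was 40240 to 44826 CPM in OVX and 53907 to 58470 CPM in sham. The MSC libraries also carried them, at 26673 to 26737 CPM in MSC, 32671 to 33180 CPM in MSC+RAW-TW and 13870 to 14260 CPM in MSC+RAW-LPS-TW. Lyz2, the lysozyme gene of macrophages and neutrophils, reached 21597 and 21688 CPM in the MSC libraries, against 453 and 459 CPM for the collagen gene Col1a1. The summed level of 10 stromal markers was 2659 to 2806 CPM in MSC, 2033 to 2046 CPM in MSC+RAW-TW and 4003 to 4046 CPM in MSC+RAW-LPS-TW. In BMMs it was 7172 to 8232 CPM. The markers therefore did not match the labels cleanly, and "MSC" is used below for the library label, not for a cell type. The summed level of 10 dendritic cell markers was 161 to 257 CPM over the 12 libraries, of which 2 to 6 were at 0 in a library. Fscn1 and Itgax, which other cells also express, reached 197 and 87.8 CPM, and Batf3 reached 20.2 CPM, while Flt3, Cd209a, Clec9a and Siglech had at most 10 counts in any library.

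The genes are identified in the tables as ENSMUSG00000036594 (H2-Aa), ENSMUSG00000073421 (H2-Ab1), ENSMUSG00000060586 (H2-Eb1), ENSMUSG00000037649 (H2-DMa), ENSMUSG00000079547 (H2-DMb1), ENSMUSG00000037548 (H2-DMb2), ENSMUSG00000024610 (Cd74) and ENSMUSG00000022504 (Ciita). Of the 8 genes, 6 lie in the MHC on chromosome 17 of GRCm38. H2-DMa spans chr17:34119541-34139101 on the plus strand, followed on that strand by H2-DMb2 at chr17:34143307-34151555, H2-DMb1 at chr17:34153072-34160230 and H2-Ab1 at chr17:34257689-34269419. H2-Aa lies on the minus strand at chr17:34282744-34287823, and H2-Eb1 on the plus strand at chr17:34305867-34316674. Ciita spans chr16:10480059-10528418 on the plus strand. Cd74 lies outside the MHC as well. The exons of H2-DMa overlap 360 bp of Brd2 exons on the other strand, and those of Ciita overlap 329 bp of Dexi. The strand setting of the counting is not stated, so that reads of these overlaps cannot be assigned with certainty.

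Class II promoters are known for a shared element in which an X box, bound by the RFX complex and CREB, stands a fixed distance before a Y box, bound by NF-Y. Ciita docks on this assembly. Stretches of 61 bases that end with a Y box core and its flank are shown for 4 promoters, 3 with the X box letters and that of H2-Aa without them, because the genes share a known regulator that acts at such elements. A match is a description of the letters, not a site. They are RefSeq sequence of GRCm38.p6, 5′ to 3′ on the strand of the gene. Capitals mark the Y box core GATTGG and, upstream of it, the letters AACNGATGATGCT, where N is any base. These are the longest stretch that 3 of the promoters share with 1 differing position, and they lie where the X box is placed. In H2-Aa capitals mark TGACGTCA instead, the longest palindrome upstream of its Y box core and the letters of a cyclic AMP element.

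H2-DMb2: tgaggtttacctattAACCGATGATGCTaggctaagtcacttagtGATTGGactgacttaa
H2-DMb1: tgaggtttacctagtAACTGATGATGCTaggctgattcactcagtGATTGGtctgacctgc
H2-Eb1: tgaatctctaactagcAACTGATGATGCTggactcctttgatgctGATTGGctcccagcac
H2-Aa: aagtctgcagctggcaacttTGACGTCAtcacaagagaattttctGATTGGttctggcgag

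The H2-DMb2 stretch lies at chr17:34145113-34145173, from -136 to -76 relative to the RefSeq transcription start, and that of H2-DMb1 at chr17:34153084-34153144, from -107 to -47. Both lie inside the Ensembl spans given above, which begin further upstream than these RefSeq starts. The H2-Eb1 stretch lies at chr17:34305762-34305822, from -105 to -45, and that of H2-Aa at chr17:34287857-34287917 on the minus strand, from -94 to -34. Both strands of 32851 RefSeq promoters of 300 bases were searched. The Y box core was in 16.1% of them, AACNGATGATGCT in 0.0152% and TGACGTCA in 1.79%. AACNGATGATGCT with a Y box core starting 20 to 40 bases after its own start was in 3 promoters, those of H2-DMb1, H2-DMb2 and H2-Eb1. Both stretches were read from these promoters, so that their shares are no evidence for the element. Both H2-DMa promoters in RefSeq lacked these stretches, and 1 of them held the Y box core.

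H2-DMb1 and H2-DMb2 are close copies. Their longest transcripts aligned over 1045 bases with 96.0% identity and a longest identical run of 221 bases. Of the windows of 100 bases in their transcripts, 11.3% of those of H2-DMb1 and 10.3% of those of H2-DMb2 were found in the other gene. Reads that lie wholly within shared sequence cannot be assigned to one of the pair, so that counts of both genes are uncertain. The reads were longer than these windows and came in pairs, so the shares do not measure how many counts are uncertain. No window of the other 6 genes was found in another gene.

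Cd74 was the most abundant of the 8 genes in all 5 groups. Per length, its mean level was 121.8 ± 13.7 CPM per kb (SD, n = 2) in sham and 90.8 ± 6.65 (SD, n = 3) in OVX. In the second experiment it was 75.2 ± 16.8 (SD, n = 2) in MSC, 180.6 (n = 1) in MSC+RAW-TW and 44.6 ± 4.54 (SD, n = 2) in MSC+RAW-LPS-TW. It made up 54.3% of the summed level per length of the 8 genes in OVX and 59.4% in sham, but between 80.3% and 86.0% in the groups of the second experiment. The tables were normalized separately, so that levels are set side by side between them without a test. In BMMs the order below Cd74 was H2-DMb1, H2-Ab1, H2-Eb1, H2-DMa, H2-Aa, H2-DMb2 and Ciita in both sham and OVX. Of these neighbors, the library values of H2-DMa and H2-Aa overlapped in both groups, and those of the other neighbors did not.

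In the second experiment the order below Cd74 differed from that of BMMs. H2-DMa followed Cd74 in MSC, at 4.05 ± 0.0636 CPM per kb (SD, n = 2), and in MSC+RAW-TW, at 9.84 CPM per kb (n = 1). H2-Ab1 followed it in MSC+RAW-LPS-TW, at 4.56 ± 0.733 CPM per kb (SD, n = 2). H2-DMb1, next to Cd74 in BMMs at 22.9 ± 1.11 (SD, n = 3) CPM per kb in OVX and 27.95 ± 1.34 (SD, n = 2) in sham, came in place 6 in MSC at 1.72 ± 0.455 (SD, n = 2). Its library values overlapped those of H2-Aa in MSC, of H2-DMb2 in MSC+RAW-TW and of H2-DMb2 in MSC+RAW-LPS-TW. Ciita was last in every group.

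**Figure D1:**
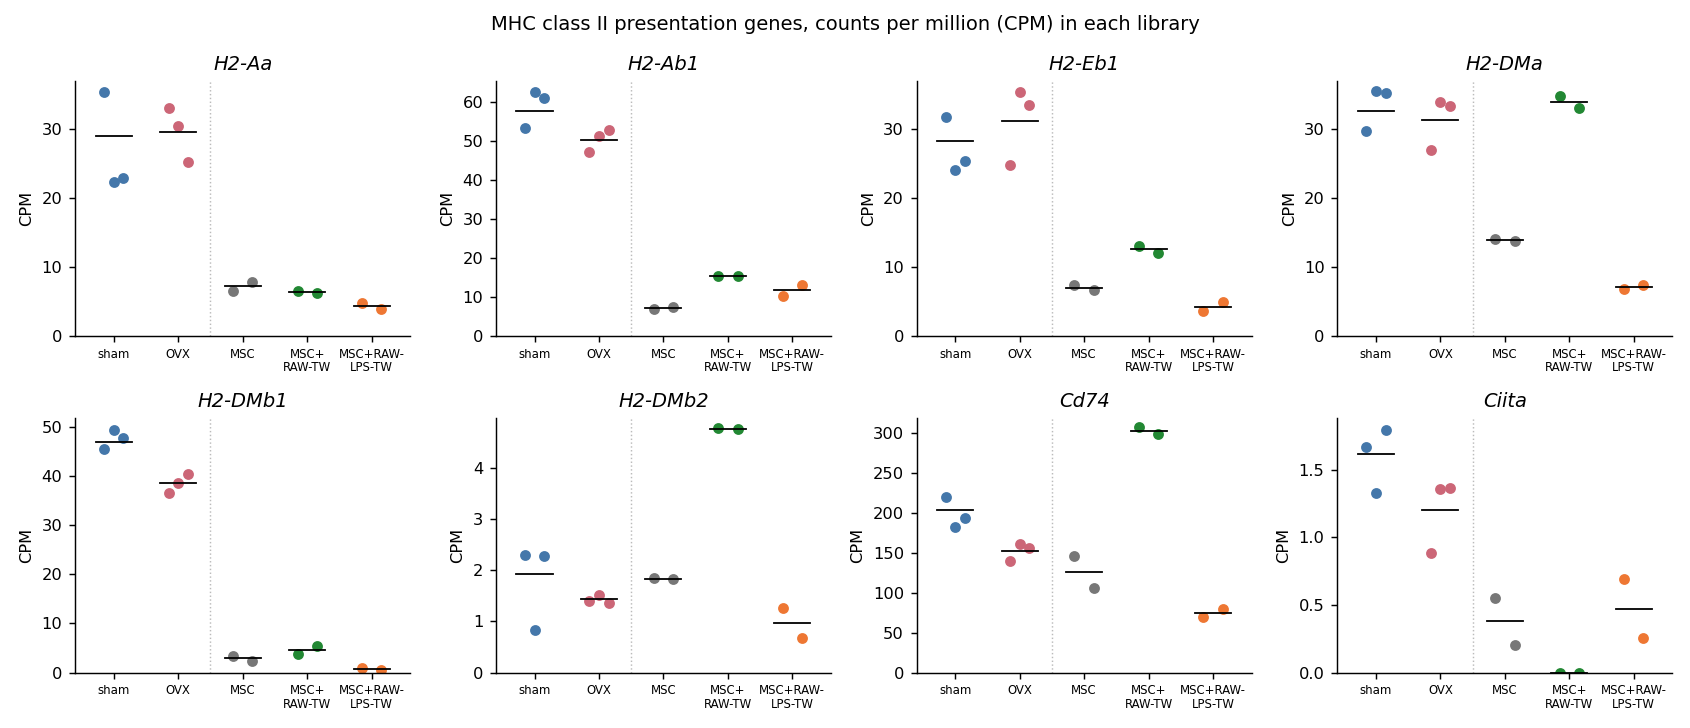
CPM (linear axes from 0) of the 8 genes in each of 12 libraries. Points are libraries, black lines are group means with near-identical libraries averaged to 1 sample, and the dotted line parts the 2 experiments, which were normalized separately. Cd74 reached 308 and 299 CPM in MSC+RAW-TW and 69.5 and 80.3 CPM in MSC+RAW-LPS-TW, and Ciita was at 0 in both MSC+RAW-TW libraries.

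The balance between the beta chain genes of DM differed between the experiments. In BMMs, H2-DMb1 took between 95.2% (95% exact binomial interval 94.1 to 96.1) and 98.4% (97.2 to 99.1) of the counts on both genes in the 6 libraries. In MSC it took 65.1% (59.0 to 70.9) and 56.3% (47.8 to 64.6). In MSC+RAW-TW the shares were 44.6% (39.3 to 49.96) and 53.1% (47.8 to 58.4), and in MSC+RAW-LPS-TW they were 41.7% (30.2 to 53.9) and 44.7% (28.6 to 61.7). No interval of the second experiment reached those of the BMM libraries. A share within a library does not depend on the scaling of the library. The intervals cover counting error only and are too narrow, since even counts made up 60.0% to 71.4% of the counts from 1 to 20, and the windows that both genes share add to the uncertainty.

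**Figure D2:**
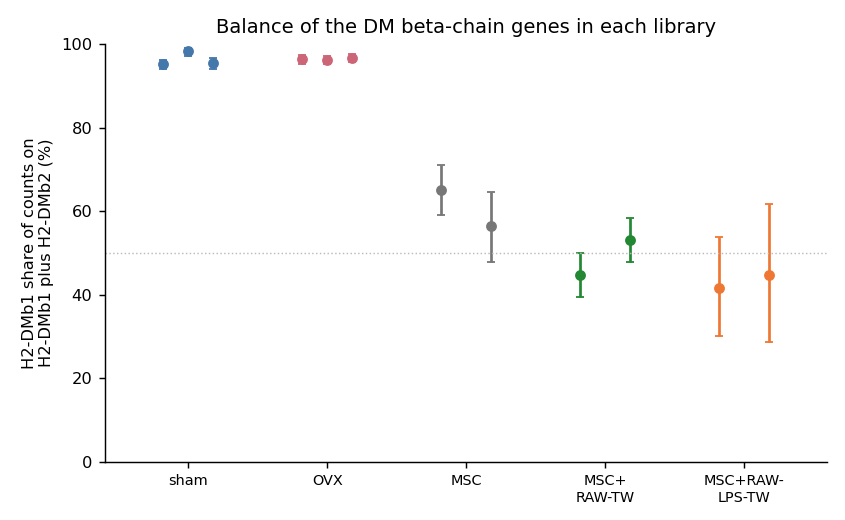
Share of H2-DMb1 in the counts on H2-DMb1 plus H2-DMb2 (percent, linear axis from 0 to 100) in each library, by group, with 95% exact binomial intervals. The 6 BMM libraries lie between 95.2% and 98.4%, and the 6 libraries of the second experiment between 41.7% and 65.1%.

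The first comparison asked how macrophages of ovariectomized mice differed from those of sham-operated mice. None of the 8 genes was called by edgeR's quasi-likelihood test, with a call set at a change of 2-fold or more and an adjusted p (Benjamini-Hochberg) no larger than 0.05. Of all 16768 genes tested, 8.46% were called, 5.39% higher and 3.08% lower. Without the fold limit 0 of the 8 passed against 13.1% of all genes, and DESeq2 called 0 of 8 as well. An unadjusted p under 0.05 was reached by 1 of the 8, Cd74, and by 29.9% of all genes.

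Cd74, the invariant chain gene, was measured at 139.8, 161 and 156 CPM in OVX and at 221, 183 and 194 CPM in sham. All OVX libraries lay below all sham libraries. Its log2 fold change was -0.44 (SE 0.18, 95% interval -0.84 to -0.03), with an unadjusted p of 0.037 and an adjusted p of 0.14 in edgeR. Over the alternative settings its adjusted p ran from 0.042, with all libraries kept separate and a replicate block, to 0.92, with trends on GC content and gene length taken out, and its log2 fold change was then -0.38 and -0.04. No setting brought it to 2-fold. H2-DMb1 was at 36.6, 38.5 and 40.4 CPM in OVX and at 45.4, 49.4 and 47.7 CPM in sham, a log2 difference of -0.30 (SE 0.17, edgeR adjusted p = 0.27). H2-Ab1 was at 47.2, 51.3 and 52.8 CPM in OVX and at 53.4, 62.7 and 61.2 CPM in sham, a log2 difference of -0.20 (SE 0.17, edgeR adjusted p = 0.47). These 3 genes were the members whose groups did not overlap, against 42.9% of all genes tested.

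The other 5 genes overlapped between OVX and sham. H2-Aa, the alpha chain of I-A, was at 33.1, 30.4 and 25.2 CPM in OVX and at 35.4, 22.3 and 22.9 CPM in sham, with the highest value of all 6 in sham replicate 1. H2-Eb1 was at 24.8, 35.4 and 33.5 CPM in OVX and at 31.8, 24.0 and 25.3 CPM in sham. H2-DMa was at 26.9, 33.9 and 33.3 CPM in OVX and at 29.8, 35.6 and 35.3 CPM in sham. The 3 genes gave log2 differences of 0.02, 0.13 and -0.07, with 95% intervals from -0.53 to 0.56, from -0.38 to 0.64 and from -0.51 to 0.38. A change of 2-fold lies outside each of these intervals.

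The low genes of the set were less certain. H2-DMb2 had between 13 and 88 counts in the 6 BMM libraries and lay at 1.40, 1.52 and 1.36 CPM in OVX and at 2.29, 0.823 and 2.28 CPM in sham. Sham replicates 2 and 3, counted as 1 sample, had 13 and 47 counts. Its log2 difference was -0.47 with an interval from -1.23 to 0.28. Ciita was at 0.883, 1.36 and 1.36 CPM in OVX and at 1.67, 1.33 and 1.79 CPM in sham, on 21 to 64 counts. Its log2 difference of -0.45 had an interval from -1.28 to 0.39. For both genes the interval includes a 2-fold fall.

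The median log2 fold change of the 8 genes in OVX against sham was -0.25, with -0.01 for all genes. After the trends with GC content and length were taken out of every library, the median was -0.01, and H2-DMa, H2-DMb1 and H2-Ab1 moved from negative to positive values and H2-Aa to a negative one. The libraries of the groups differed in this trend. The rank correlation of a library's deviation with GC content, across genes, was -0.60 to -0.33 in OVX and 0.22 to 0.52 in sham. Markers of other class II expressing cells are set beside these values, where 3.08% of all genes were called lower and 5.39% higher. Of 6 B cell markers 1 was called lower in OVX, Cd79b (7.01, 7.71 and 6.31 CPM against 19.8, 20.2 and 16.3 CPM), and 0 higher. Of 10 dendritic cell markers, of which 6 passed the filter, Batf3 and Xcr1 were called lower and 0 higher. The summed B cell list was 41.3 to 51.9 CPM in OVX and 47.7 to 53.6 CPM in sham, of which Ebf1, which stromal cells also express, took 22.3 to 40.1 CPM over the 6 libraries. Of 10 macrophage markers, Fcgr1 and Adgre1 were called lower and Mrc1 higher. The summed level of the list was lower in all OVX than in all sham libraries, as was Cd74, but it was mostly Lyz2. Lyz2 reached 51547 CPM in a BMM library, and the list at most 58470 CPM. The part of these cells in the class II values was not tested.

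**Figure D3:**
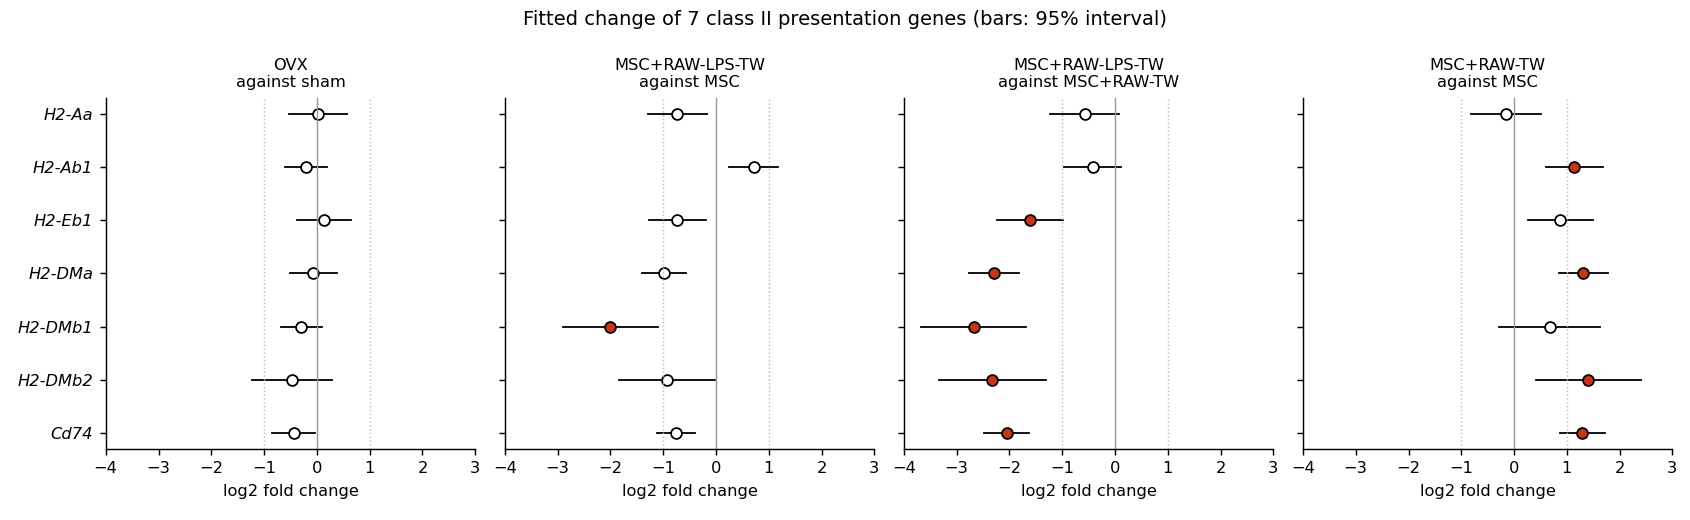
Log2 fold changes of 7 genes in 4 comparisons (edgeR, x axes from -4 to 3) with 95% intervals as bars. Filled points were called, and dotted lines mark a 2-fold change. Ciita is left out because its counts in MSC+RAW-TW are 0. In OVX against sham all points are open, and against MSC+RAW-TW, 5 genes lie at -1.61 or lower in MSC+RAW-LPS-TW.

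The second experiment asked how MSC cultures responded to macrophages across a membrane, and whether lipopolysaccharide given to the macrophages altered this. The 3 comparisons share libraries and are not independent of each other. The most calls among the 8 genes lay between MSC+RAW-LPS-TW and MSC+RAW-TW. There, 6 of the 8 genes were called, 5 lower and 1 higher, where 27.4% of 20499 genes were called either way, 12% lower and 15.4% higher. The genes that fell were H2-Eb1, H2-DMa, H2-DMb1, H2-DMb2 and Cd74, and the gene that rose was Ciita. With no fold limit, the same 6 genes passed, against 40.2% of all genes.

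Cd74 was at 69.5 and 80.3 CPM in MSC+RAW-LPS-TW and at 308 and 299 CPM in MSC+RAW-TW. It was 4.14-fold lower with lipopolysaccharide (log2 -2.05, SE 0.20, edgeR adjusted p = 1.7e-06). H2-DMa was at 6.75 and 7.40 CPM against 34.8 and 33.1 CPM, 4.91-fold lower (log2 -2.29, SE 0.22, edgeR adjusted p = 1.4e-06). The beta chain genes of DM fell as well. H2-DMb1 was at 0.900 and 0.542 CPM against 3.84 and 5.38 CPM (log2 -2.68, SE 0.47, edgeR adjusted p = 0.00034). H2-DMb2 was at 1.26 and 0.670 CPM against 4.77 and 4.75 CPM (log2 -2.32, SE 0.48, edgeR adjusted p = 0.0012). The intervals of the 3 DM genes overlapped, and no difference among them was tested.

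Of the chains that form the surface molecules, H2-Eb1 fell and the I-A pair was not called. H2-Eb1 was at 3.60 and 4.85 CPM in MSC+RAW-LPS-TW against 13.1 and 12.1 CPM in MSC+RAW-TW (log2 -1.61, SE 0.29, edgeR adjusted p = 0.00043). H2-Aa was at 4.74 and 3.95 CPM against 6.53 and 6.16 CPM (log2 -0.58, interval -1.23 to 0.08, edgeR adjusted p = 0.15). H2-Ab1 was at 10.4 and 13.04 CPM against 15.4 and 15.4 CPM (log2 -0.42, interval -0.97 to 0.12, edgeR adjusted p = 0.20). Over the 7 genes other than Ciita the library values of the groups did not overlap and were lower with lipopolysaccharide, where 78.1% of all genes did not overlap in either direction.

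Ciita went the other way in the counts. It had 23 and 8 counts in MSC+RAW-LPS-TW, 27 and 7 in MSC, and 0 in both MSC+RAW-TW libraries, whose totals were among the highest of the experiment. A count of 0 over that group allows up to 3 counts, or 0.0397 CPM. Against this floor the level was 12.1-fold higher in MSC+RAW-LPS-TW and 10.3-fold higher in MSC, with levels over the group of 0.479 and 0.409 CPM. The counts behind these levels are taken as exact, and the floor assumes that counts arise independently. Even counts made up 71.4% and 71.0% of the counts from 1 to 20 in the MSC+RAW-TW libraries. The floor may thus be too low and the bounds too high. Without the higher library of each group the bounds were 6.43-fold and 5.18-fold. EdgeR called the difference in both comparisons (adjusted p = 0.022 and 0.036), but without MSC+RAW-LPS-TW replicate 1 the first had an adjusted p of 0.0505, just above the threshold. The second was lost without MSC replicate 1 (adjusted p = 0.17) or without either MSC+RAW-TW library (0.065 and 0.056). The libraries differed by a factor of over 2 within both MSC (0.551 and 0.205 CPM) and MSC+RAW-LPS-TW (0.690 and 0.255 CPM).

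The median log2 fold change of the 8 genes in MSC+RAW-LPS-TW relative to MSC+RAW-TW was -1.83 with Ciita as fitted or at its bound, and -2.05 over the other 7 genes. The median of all genes was 0.14, which is the shift against which these values stand. The calls of the 5 genes that fell held under every setting that kept all libraries. With each library left out, their log2 fold changes ran from -3.08 to -1.40. Both MSC+RAW-TW libraries stand for the same sample, so leaving either out does not show how that group varies. With the GC content and length trends removed, Cd74 was at -1.57, H2-DMa at -1.85, H2-DMb1 at -2.33, H2-DMb2 at -2.03 and H2-Eb1 at -1.37, all with edgeR adjusted p of 0.0055 or lower. The summed macrophage marker level was lower in MSC+RAW-LPS-TW by the values given above, and in bulk RNA fewer cells of a type and less RNA per cell cannot be told apart. Lyz2 made up much of the summed level, at up to 26658 CPM in this experiment, against at most 33180 CPM for the list. Macrophage markers did not move as one. Of the 10, 5 were called lower (Mrc1, C1qa, Lyz2, Cd68 and Csf1r) and 3 higher (Itgam, Adgre1 and Cd14). Of all genes, 12% were called lower and 15.4% higher. Of the 10 stromal markers 5 were called higher and 0 lower, and of 8 neutrophil markers, of which 3 passed the filter, S100a8 and Camp were called higher. Of 10 dendritic cell markers, of which 6 passed, 1 was called higher. Of 6 B cell markers, of which 4 passed, and of 7 T cell markers, of which 5 passed, 1 each was called lower. The part of these cells in the result was not tested.

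Against MSC alone, MSC+RAW-LPS-TW differed less. Of the 8 genes 1 was called, H2-DMb1, which fell from 3.43 and 2.35 CPM to 0.900 and 0.542 CPM (log2 -2.001, SE 0.42, edgeR adjusted p = 0.0026). Of all 20499 genes, 10.9% were called, 5.85% higher and 5.09% lower. Beside these shares, 4 of 10 macrophage markers were called lower and 1 higher, and 2 of 10 stromal markers higher. Of 8 neutrophil markers, of which 3 passed the filter, 2 were called higher, and of 6 B cell markers, of which 4 passed, 1 lower. No dendritic cell or T cell marker was called, and the part of these cells was not tested. Without the fold limit 4 of the 8 passed, against 20.9% of all genes. H2-DMa, at 14.1 and 13.8 CPM in MSC and 6.75 and 7.40 CPM in MSC+RAW-LPS-TW, was just under 2-fold lower (log2 -0.98, SE 0.19, edgeR adjusted p = 0.0014). Cd74, at 146 and 106 CPM in MSC, was 1.69-fold lower (log2 -0.76, SE 0.17, edgeR adjusted p = 0.0046). H2-Ab1, at 6.84 and 7.39 CPM in MSC and 10.4 and 13.04 CPM in MSC+RAW-LPS-TW, was 1.64-fold higher (log2 0.72, SE 0.22, edgeR adjusted p = 0.028). Over the alternatives the adjusted p of Cd74 reached 0.19 and that of H2-Ab1 0.18.

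H2-Ab1 was thus on the other side of its partner H2-Aa in this comparison. H2-Aa was at 6.55 and 7.89 CPM in MSC and 4.74 and 3.95 CPM in MSC+RAW-LPS-TW (log2 -0.73, SE 0.26, edgeR adjusted p = 0.060). H2-Eb1, at 7.39 and 6.60 CPM in MSC and 3.60 and 4.85 CPM, gave -0.73 (SE 0.25, edgeR adjusted p = 0.052). H2-DMb2, at 1.84 and 1.82 CPM in MSC and 1.26 and 0.670 CPM, gave -0.92 (SE 0.43, edgeR adjusted p = 0.16). Ciita gave 0.30 with an interval from -2.05 to 2.66. Groups did not overlap for 7 of the 8 genes, 6 lower and 1 higher in MSC+RAW-LPS-TW, against 57.7% of all genes. The number of calls was 2 when MSC+RAW-LPS-TW replicate 1 was left out, with H2-DMb2 added, and 2 when replicate 2 was left out, with H2-DMa added.

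In MSC+RAW-TW against MSC, 5 of the 8 genes were called. H2-Ab1, H2-DMa, H2-DMb2 and Cd74 rose and Ciita fell, where 16.4% of all genes were called either way, 6.8% higher and 9.59% lower. With no fold limit 6 of the 8 passed, against 28.6% of all genes. Cd74 was at 308 and 299 CPM against 146 and 106 CPM, 2.45-fold higher (log2 1.29, SE 0.20, edgeR adjusted p = 0.00045). H2-DMa was at 34.8 and 33.1 CPM against 14.1 and 13.8 CPM (log2 1.31, SE 0.22, edgeR adjusted p = 0.00066). H2-Ab1 was at 15.4 in both libraries against 6.84 and 7.39 CPM (log2 1.14, SE 0.25, edgeR adjusted p = 0.0039). H2-DMb2 was at 4.77 and 4.75 CPM against 1.84 and 1.82 CPM (log2 1.41, SE 0.47, edgeR adjusted p = 0.034).

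The 4 rises in MSC+RAW-TW against MSC depended on the treatment of trends with GC content and length, which were removed together. With both removed, none of the 4 was called. Cd74 was then at 0.82, H2-DMa at 0.88, H2-Ab1 at 0.59 and H2-DMb2 at 1.20 on the log2 scale, and edgeR adjusted p were 0.010, 0.0090, 0.093 and 0.087. The rank correlation of the library's deviation with GC content, across genes, was 0.39 and 0.40 in the MSC+RAW-TW libraries and -0.30 to -0.14 in the other 4. The call of H2-DMb2 was also lost in DESeq2 (adjusted p = 0.095), without MSC replicate 1 (0.11) and without MSC replicate 2 (0.12). H2-Eb1 gave 0.88 (SE 0.29, edgeR adjusted p = 0.033), under the fold limit, H2-DMb1 gave 0.68 (SE 0.45, edgeR adjusted p = 0.27) and H2-Aa gave -0.15 (SE 0.31, edgeR adjusted p = 0.74). Of 10 macrophage markers C1qa was called higher, of 10 stromal markers Prrx1, Pdgfra and Dcn were called lower, and of 8 neutrophil markers S100a8 was called higher. Of all genes, 6.8% were called higher and 9.59% lower. The summed dendritic cell list, with no marker called, was 162 to 164 CPM in MSC and 257 CPM in both MSC+RAW-TW libraries, and the part of these cells was not tested. The median over the 7 genes other than Ciita was 1.14, with -0.13 for all genes. The groups overlapped for none of the 8 genes, against 78.4% of all genes without overlap, with 6 higher and 2 lower in MSC+RAW-TW.

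The genes around the 8 were described from lists. Of the other class II chains, H2-Ob, which encodes the beta chain of the DM inhibitor DO, was the only one with a call, in the second experiment. It was at 0.653 and 0.323 CPM in MSC, 1.76 and 1.47 CPM in MSC+RAW-TW and 6.15 and 6.85 CPM in MSC+RAW-LPS-TW. MSC+RAW-LPS-TW exceeded MSC (log2 3.69, SE 0.41, edgeR adjusted p = 6.1e-06) and MSC+RAW-TW (log2 1.97, SE 0.47, edgeR adjusted p = 0.0034), while the DM genes lay lower there. Its rise in MSC+RAW-TW against MSC (log2 1.72, edgeR adjusted p = 0.011) was lost without MSC replicate 2 (adjusted p = 0.083). In OVX against sham H2-Ob was at 3.35, 1.70 and 1.90 CPM against 1.35, 0.696 and 1.16 CPM (log2 0.98, SE 0.42, edgeR adjusted p = 0.16), and it was called higher only with all libraries separate and a replicate block (log2 1.10). H2-Oa, the alpha chain of DO, had at most 14 counts in any library. H2-Ea-ps, the I-E alpha pseudogene, had 0 counts in all 6 BMM libraries and at most 12 in the others. The sequencing does not show whether DO was present.

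The DNA-binding proteins of class II promoters, Rfx5, Rfxap, Rfxank, Creb1, Nfya, Nfyb and Nfyc, had no call among 7 in any of the 4 comparisons with edgeR or with DESeq2. With no fold limit, an edgeR adjusted p of at most 0.05 was reached by Creb1 and Nfyb, both higher, in OVX against sham, where 13.1% of all genes reached it. Rfx5, higher, and Nfya, lower, reached it in MSC+RAW-LPS-TW against MSC (20.9% of all genes), and with Nfyc, lower, against MSC+RAW-TW (40.2%). Nfya and Nfyc, both higher, reached it in MSC+RAW-TW against MSC (28.6%). The same number of genes, 2, 2, 3 and 2, had an unadjusted p under 0.05, against 29.9%, 31.2%, 49.3% and 40.7% of all genes. Their medians lay between -0.21 and 0.20 on the log2 scale in the 4 comparisons. Rfx5 was called higher in MSC+RAW-LPS-TW relative to MSC+RAW-TW when all libraries were kept separate or MSC+RAW-TW replicate 1 was left out, and together with Nfya, called lower, when MSC+RAW-LPS-TW replicate 2 was left out.

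Of 5 genes of the interferon-gamma route, 1 was called in the comparisons of MSC+RAW-LPS-TW, Jak2, where 10.9% of all genes were called against MSC and 27.4% against MSC+RAW-TW. In the other comparisons 0 were called by edgeR or DESeq2, with 4 of 5 in OVX against sham (29.9% of all genes) and 2 of 5 in MSC+RAW-TW against MSC (40.7%) at an unadjusted p under 0.05. Jak2, a kinase of the receptor, was at 47.8 and 43.1 CPM in MSC, 34.3 and 33.8 CPM in MSC+RAW-TW and 418 and 387 CPM in MSC+RAW-LPS-TW. The last group was higher than MSC (log2 3.14, SE 0.16, edgeR adjusted p = 1.1e-09) and higher than MSC+RAW-TW (log2 3.53, SE 0.22, edgeR adjusted p = 1.3e-08). With no fold limit 3 of 5 passed in each, Jak2 and Ifngr2 higher and Ifngr1 lower against MSC (20.9% of all genes), and Jak2 and Jak1 higher and Ifngr1 lower against MSC+RAW-TW (40.2%). Ifngr1, a receptor chain, was also called lower against MSC+RAW-TW with the GC content and length trends removed or without MSC+RAW-LPS-TW replicate 2. In the same group, Ciita itself was called higher than in MSC+RAW-TW, by the values given above, while against MSC its interval held 0.

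Both repressors of Ciita rose in MSC+RAW-LPS-TW, where 5.85% of all genes were called higher against MSC and 15.4% against MSC+RAW-TW. Socs1, an inhibitor of JAK signaling, was at 10.4 and 13.4 CPM in MSC, 12.4 and 11.8 CPM in MSC+RAW-TW and 128 and 123 CPM in MSC+RAW-LPS-TW. Its log2 fold change was 3.40 against MSC (SE 0.18, edgeR adjusted p = 1.4e-09) and 3.34 against MSC+RAW-TW (SE 0.24, edgeR adjusted p = 5.6e-08). Prdm1, which encodes the repressor Blimp-1, was at 1.76 and 3.20 CPM in MSC, 1.69 and 0.920 CPM in MSC+RAW-TW and 21.8 and 16.6 CPM in MSC+RAW-LPS-TW. Its log2 fold change was 2.97 against MSC (SE 0.30, edgeR adjusted p = 1.9e-06) and 3.82 against MSC+RAW-TW (SE 0.41, edgeR adjusted p = 4.1e-06).

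**Figure D4:**
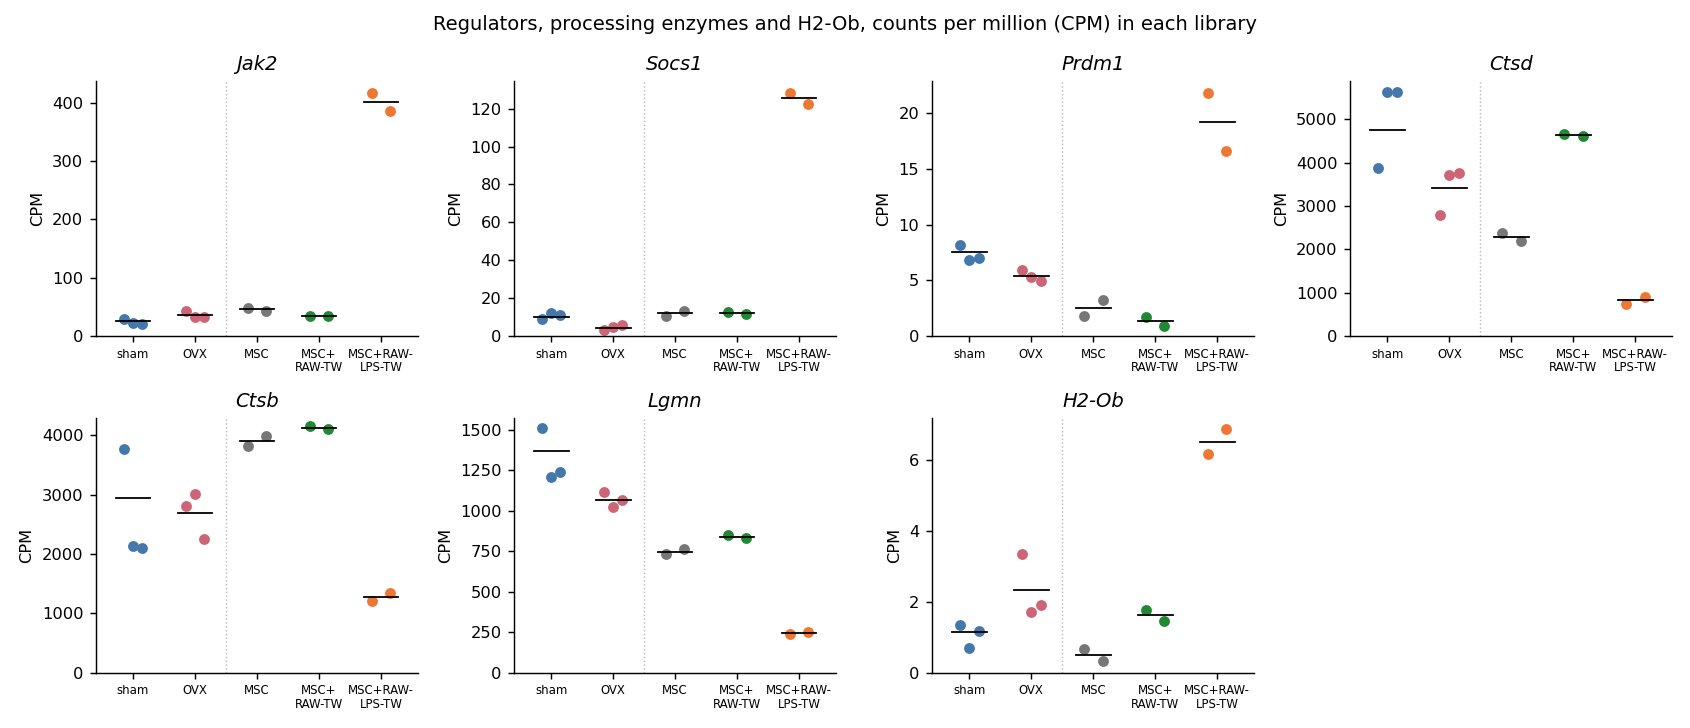
CPM (linear axes from 0) in each library for 7 genes of the lists that had a call: 3 regulators, 3 endosomal enzymes and H2-Ob. Points are libraries and black lines group means with near-identical libraries averaged to 1 sample. In MSC+RAW-LPS-TW, Socs1 lies at 128 and 123 CPM and Jak2 at 418 and 387 CPM, above all other libraries of the experiment, and Ctsd, Ctsb and Lgmn lie below them.

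Genes of endosomal processing cut antigens and the invariant chain. Of 7, 4 were called lower in MSC+RAW-LPS-TW against MSC, where 5.09% of all genes were, and 5 against MSC+RAW-TW, where 12% were, and 0 were called higher in either. The genes that fell against both were the proteases Ctsb, Ctsd and Lgmn and the thiol reductase gene Ifi30. The proteases Ctss and Ctsl of the list were called in neither comparison. Without the fold limit Ctss passed, lower, against MSC only, where 20.9% of all genes passed, and Ctsl in neither. Ctsb fell by 1.62 on the log2 scale against MSC (SE 0.16) and by 1.73 against MSC+RAW-TW (SE 0.18). Ctsd fell by 1.48 (SE 0.16) and by 2.53 (SE 0.19), Lgmn by 1.61 (SE 0.15) and by 1.81 (SE 0.17), and Ifi30 by 1.35 (SE 0.16) and by 1.78 (SE 0.18). Cst3, an inhibitor of cathepsins, fell against MSC+RAW-TW by 1.98 (SE 0.22) and had risen in MSC+RAW-TW against MSC (log2 1.82, SE 0.22). Each of these calls had an edgeR adjusted p of 0.00017 or lower. Ctsd also rose in MSC+RAW-TW against MSC (log2 1.06, edgeR adjusted p = 0.00099), but gave 0.59 with the GC content and length trends removed and just under 1 without MSC replicate 2. Several of these enzymes are also abundant lysosomal products of macrophages in general.

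Of the 3 genes of surface turnover, March1 and Cd83 had calls in MSC+RAW-LPS-TW. Of all genes, 10.9% were called there against MSC and 27.4% against MSC+RAW-TW. March1, a ubiquitin ligase that removes class II molecules from the surface, was above its MSC level in MSC+RAW-LPS-TW, at 85.5 and 67.4 CPM against 38.2 and 34.7 CPM (log2 1.07, SE 0.17, edgeR adjusted p = 0.00018). It gave 0.86 without MSC+RAW-LPS-TW replicate 1 and 0.99 with the GC content and length trends removed, both under the fold limit. Cd83, which opposes March1, fell from 9.55 and 6.75 CPM in MSC and 6.80 and 7.42 CPM in MSC+RAW-TW to 3.06 and 2.42 CPM. Its log2 fold changes were -1.57 against MSC (SE 0.28, edgeR adjusted p = 0.00072) and -1.40 against MSC+RAW-TW (SE 0.33, edgeR adjusted p = 0.0030).

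In OVX against sham, calls around the set lay in the class I route and in signaling. Class I molecules present peptides from inside the cell and are loaded by other proteins. Of 11 class I genes 4 were called lower in OVX, where 3.08% of all genes were, and 0 higher, with a median of -0.87 against -0.01 for all genes. Tap1, a subunit of the peptide transporter, was at 41.5, 52.9 and 62.8 CPM in OVX and at 95.02, 135 and 125 CPM in sham (log2 -1.11, SE 0.23, edgeR adjusted p = 0.020). Psmb10, an immunoproteasome subunit, was at 72.4, 76.5 and 67.4 CPM against 138, 162 and 169 CPM (log2 -1.09, SE 0.18, edgeR adjusted p = 0.0098). Tapbp, the class I loading factor tapasin, was at 163, 182 and 184 CPM against 341, 358 and 381 CPM (log2 -1.02, SE 0.17, edgeR adjusted p = 0.010). The count of calls was 0 to 5 over the fits without a library or pair. It was 0 without OVX replicate 2, where the log2 fold changes of Tap1, Psmb10 and Tapbp were -1.11, -1.12 and -1.03 with edgeR adjusted p of 0.097, 0.063 and 0.070, and 0 without sham replicates 2 and 3. There was 1 without OVX replicate 1 and there were 2 without sham replicate 3, and 5 without sham replicate 1. With the GC content and length trends removed there were 0, with the 3 genes at -0.73, -0.67 and -0.60. The difference between the class I and class II genes was not tested.

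In OVX, Socs1 fell from 8.77, 11.96 and 11 CPM to 2.89, 4.55 and 5.63 CPM (log2 -1.22, SE 0.31, edgeR adjusted p = 0.038). This call was lost without OVX replicate 1, OVX replicate 2 or sham replicates 2 and 3, and with the GC content and length trends removed (adjusted p = 0.087, 0.13, 0.095 and 0.10). The lists of endosomal processing and surface turnover had no call in this comparison in edgeR or in DESeq2. In edgeR, 1 of 7 and 0 of 3 genes had an unadjusted p under 0.05, against 29.9% of all genes, but March1 was called lower in edgeR with the trends removed.

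In MSC+RAW-TW against MSC, class I genes gave 2 calls higher and 1 lower of 11, where 6.8% of all genes were called higher and 9.59% lower. Psmb10 and Psmb8, both immunoproteasome subunits, rose (log2 1.22 and 1.06, SE 0.21 and 0.18, edgeR adjusted p = 0.00074 and 0.00068), and the peptide-trimming gene Erap1 fell (log2 -1.28, SE 0.30, edgeR adjusted p = 0.0053). With the GC content and length trends removed none of these was called. With MSC as the base, 0 of 11 class I genes in MSC+RAW-LPS-TW were called by edgeR or DESeq2, with 5 of 11 at an adjusted p of at most 0.05 without the fold limit, against 20.9% of all genes. Against MSC+RAW-TW 1 was called, Erap1 (log2 1.32, SE 0.30, edgeR adjusted p = 0.0025), where 27.4% of all genes were, and 6 of 11 passed without the fold limit, 3 higher and 3 lower, against 40.2%. The call of Erap1 was lost once the trends were removed or MSC+RAW-LPS-TW replicate 1 was left out.

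The genes whose pattern was most like that of Cd74 were found among 9718 genes whose mean reached 5 CPM in both tables. The measure was the smaller of the Pearson correlations of log2 CPM with Cd74 over the 6 BMM and the 6 MSC experiment libraries. Tex261 was closest with 0.995, followed by Gusb, which encodes the lysosomal enzyme beta-glucuronidase, with 0.979, Tpm3 and Usp30 with 0.973 each, and Arfrp1 with 0.972. These are descriptions over 6 libraries each, of which a pair counts as 1 sample. Libraries share group, depth and the GC trend, and the values carry no test.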

How the data were processed

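RNA-seq was measured in 12 libraries. Per the methods and labels, poly(A) RNA was made into directional libraries, read in pairs, trimmed with Trim Galore 0.6.7, mapped to GRCm38 with HISAT2 2.1.0 and counted on Ensembl genes with featureCounts 2.0.1. How strand and read pairs were handled in counting is not given in the sources used here. The values the authors deposited are raw counts per gene and library without normalization. Exon lengths deposited beside them gave CPM per kb.

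From these counts, edgeR 4.0.16 in R 4.3.3 gave TMM-normalized CPM and the quasi-likelihood F-test (two-sided, filterByExpr, Benjamini-Hochberg over all genes of a table). The BMM fit held OVX and sham, and the second held all 3 MSC groups, which share one estimate of the spread. SE is the absolute log2 fold change divided by the root of F. DESeq2, the tool of the study's methods, was an alternative, here in version 1.42.0 and not the study's. Near-identical libraries were summed. In the MSC table the names of the MSC+RAW-TW and MSC+RAW-LPS-TW columns give the group but not which replicate, and replicate numbers there are only names. Gene names, transcripts and GC content came from GENCODE annotation of GRCm38 for 55141 of the 55487 identifiers. Promoters came from a set of RefSeq sequences, of which those of 5 of the 8 genes were used here. GC content and length trends were removed by lowess (span 0.3) as offsets. In simulated data the fit recovered 200 of 200 genes changed by 2 on the log2 scale in OVX against sham with 3 false calls among 16516 genes, and 199 of 200 in MSC+RAW-LPS-TW against MSC with 8 among 18768. The changed genes lay above 5 CPM, with the same spread for every gene and no GC trend. Genes as low as Ciita and H2-DMb2 and the comparisons with MSC+RAW-TW were not covered.

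The genes and lists were chosen with earlier results of these data known. Named were all 8 genes, every called gene of the class II, promoter complex, interferon-gamma, repressor, processing and turnover lists, at most 3 class I genes per comparison by size of change, and the 5 genes most like Cd74. Marker lists of cell types were described by summed CPM and by the calls of single markers, without a test of the list. A few listed genes are not reported here and were left out of the counts and sums of their lists. Software for tables, sequences and figures was scipy 1.17.1, biopython 1.88, matplotlib 3.10.9, pandas 2.3.3 and numpy 2.4.6 under python 3.11.15.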

Additional observations from a re-analysis of the deposited data

How the results depend on the processing

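The count of called genes in OVX against sham was 0 of 8 under every alternative, the replicate block included. In MSC+RAW-LPS-TW against MSC it was 1, but 4 with no fold limit and 1 to 2 over the fits without 1 library. Against MSC+RAW-TW it was 6, and 5 to 6 over those fits. In MSC+RAW-TW against MSC it was 5, but 1 with the GC content and length trends removed, and 3 to 5 over the fits without 1 library, with the low value without MSC replicate 1. Of the log2 fold changes of the 8 genes without a library or pair, 193 kept direction and call, 7 turned, 6 lost and 2 gained the call, and under the other alternatives 189 kept both, 6 turned and 5 lost the call. This tally leaves out the alternative with no fold limit, which uses the main fit. With the trends removed, in OVX against sham H2-DMa gave 0.30, H2-DMb1 0.017, H2-Ab1 0.22 and H2-Aa -0.15. Against MSC+RAW-TW H2-Ab1 then gave 0.12 in MSC+RAW-LPS-TW, and against MSC H2-Aa gave 0.14 in MSC+RAW-TW. None of these was called in either fit. Without a library or pair, the sign changed for H2-DMa (-0.18 to 0.062), H2-Aa (-0.27 to 0.38) and H2-Eb1 (-0.038 to 0.33) in OVX against sham, and for Ciita in MSC+RAW-LPS-TW against MSC (-0.61 to 1.19). The causes were not tested. The pairing of BMM libraries by number was not borne out, since same-numbered libraries correlated with 0.54, -0.06 and 0.54 in their deviations across 13207 genes. With all libraries separate, the block moved the calls over all genes from 1818 to 2117. For the MSC groups no block by replicate number was fitted, because their columns carry no matching numbers. Counts called over all genes in OVX against sham were 1419, but 588 with the trends removed, 678 without OVX replicate 1, 309 without OVX replicate 2 and 2390 without sham replicate 1. In MSC+RAW-TW against MSC they were 3360 and 2157 with the trends removed. The series of library identifiers as a block, chosen after seeing the data and fitted in both experiments, changed no member's call. Depth limits Ciita and H2-DMb2, with at most 64 and 195 counts in any library.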

Other observations

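Other marker lists varied between groups. Neutrophil markers summed to 11.7 to 16.4 CPM in MSC, 31.7 to 34.6 CPM in MSC+RAW-TW and 369.7 to 557 CPM in MSC+RAW-LPS-TW, and to 778 to 912 CPM in sham and 1165 to 1292 CPM in OVX. Camp and S100a8 made up the value in MSC+RAW-LPS-TW, where S100a9, which encodes the partner of S100a8 protein, had 0.0600 and 0 CPM. B cell markers summed to 36.5 to 50.1 CPM in the second experiment. T cell markers summed to at most 10.5 CPM and endothelial markers to at most 47.2 CPM in any library.

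Mrc1, a mannose receptor gene of macrophages, was at 583 and 593 CPM in MSC, 298 and 293 CPM in MSC+RAW-TW and 3.99 and 4.02 CPM in MSC+RAW-LPS-TW, and at 250, 185 and 175 CPM in OVX against 50.4, 49.6 and 50.7 CPM in sham. Batf3, a transcription factor of cross-presenting dendritic cells, was at 3.56, 4.39 and 3.41 CPM in OVX against 20.2, 17.7 and 18.6 CPM in sham. Both were singled out after their values were seen.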
